A study of Rattus norvegicus with 54 samples.

Results

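miR-802 is a miRNA that the rat table lists as 2 rows, rno-miR-802-5p and rno-miR-802-3p (here miR-802-5p and miR-802-3p), the mature products of the 5' and the 3' arm of 1 hairpin. These 2 of the 832 rows were followed by name through all 54 libraries, and no further copy of either arm was listed. Small RNA was sequenced (miR-seq) from kidney, liver, plasma and urine of male Sprague-Dawley rats, aged 9 weeks, in 18 groups, by sample type and treatment, of 3 libraries each. Groups of the same treatment may share rats. Kidney, plasma and urine came from rats given 5 mg/kg cisplatin, a kidney toxicant, intravenously or 0.9% saline as its vehicle, and were taken 72 h after the dose. Liver, plasma and urine came from rats given a liver toxicant by gavage, either 1250 mg/kg acetaminophen (APAP) with 0.5% methylcellulose as its vehicle or 1500 mg/kg carbon tetrachloride (CCl4) with corn oil as its vehicle, and were taken 24 h after the dose. All rats were fasted overnight before death, and no transgene is named. Which kidney, liver, plasma and urine samples belong to 1 rat is not given by the labels. One label of the urine cisplatin samples gives a dose of 1500 mg/kg, and the dose in the study's methods was used instead.

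A miRNA hairpin is cut in the cytoplasm into a short duplex, and an arm of the duplex is loaded into an Argonaute protein, where it guides the repression of mRNAs with matching sites. miR-802 is best known from the liver of mice, where it rises in obesity. In the collecting duct of the mouse kidney it takes part in the control of potassium secretion. Hepatocytes that die release their miRNAs into blood, and miR-122, the most abundant miRNA of hepatocytes, is the established plasma marker of liver injury.

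The hairpin is shown because both rows of the table come from it and because its arms set the ratio described further on. RefSeq places it on rat chromosome 11, plus strand, at chr11:46112362-46112457 (build GRCr8, 96 bases). It lies inside the lncRNA gene LOC134480977, and the nearest protein-coding genes are Runx1 on the side of lower coordinates and RGD1562683 on the side of higher coordinates. The counts themselves were made on another build, Rnor_5.0. Capitals mark the 66 bases that are paired in the fold that RNAfold predicts, 33 base pairs with a terminal loop of 6 bases.
Mir802 hairpin: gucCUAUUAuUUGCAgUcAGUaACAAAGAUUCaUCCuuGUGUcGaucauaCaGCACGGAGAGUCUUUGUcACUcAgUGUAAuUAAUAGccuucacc
The predicted free energy was -31.3 kcal/mol, against a median of -37.9 kcal/mol over the 419 rat hairpins of the same RefSeq table, and 40.6% of its bases were G or C against a median of 49.4%.

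Levels are given as CPM, reads per 1000000 reads counted on all miRNAs of a library, with the mean ± SD of the 3 libraries of a group. The libraries held 273410 to 2213358 counted reads in liver, 372997 to 3591541 in kidney, 21627 to 1290244 in plasma and 377 to 58151 in urine. No pair of libraries was identical. The tissue labels fitted the tissues' markers: the 4 miRNAs of the liver-enriched list (miR-365-3p, miR-31a-5p and both arms of miR-122) summed to 19627 to 26584 CPM in liver and to 49.5 to 97.2 CPM in kidney, and the 11 measured miRNAs of the kidney epithelium list to 454646 to 501564 CPM in kidney and to 88870 to 107417 CPM in liver, with its member miR-196a-5p at 0 in 3 of the 4 liver groups.

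miR-802 was a liver miRNA in these rats, and it appeared in plasma in number after the liver toxicants only. Liver libraries held 89.0% of all miR-802-5p reads of the series and 88.1% of all miR-802-3p reads, plasma held 8.51% and 9.28%, and kidney held 2.51% and 2.64%. By mean level of miR-802-5p the groups ran from liver CCl4 (1031 ± 116 CPM), liver corn oil (933 ± 235 CPM), liver APAP (932 ± 222 CPM) and liver methylcellulose (840 ± 116 CPM) through plasma APAP (306 ± 69.7 CPM), plasma CCl4 (91.4 ± 99.0 CPM), kidney saline (23.8 ± 7.49 CPM) and kidney cisplatin (17.1 ± 7.83 CPM) to the plasma of corn oil (12.8 ± 16.3 CPM), saline (8.22 ± 7.52 CPM), methylcellulose (5.97 ± 10.3 CPM) and cisplatin (3.28 ± 1.38 CPM). The 4 liver groups overlapped one another. The lowest liver library (677 CPM) lay above the highest plasma APAP library (355 CPM), and the lowest plasma APAP library (226 CPM) lay above the highest plasma CCl4 library (205 CPM). Every later neighbour in that order overlapped the group before it. miR-802-3p ran lower at about the same order, from 535 ± 40.1 CPM in liver CCl4 through 219 ± 65.4 CPM in plasma APAP, 46.1 ± 33.4 CPM in plasma CCl4 and 12.4 ± 3.12 CPM in kidney saline to 0 reads in the plasma of both vehicle groups of the liver toxicants.

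**Figure D1:**
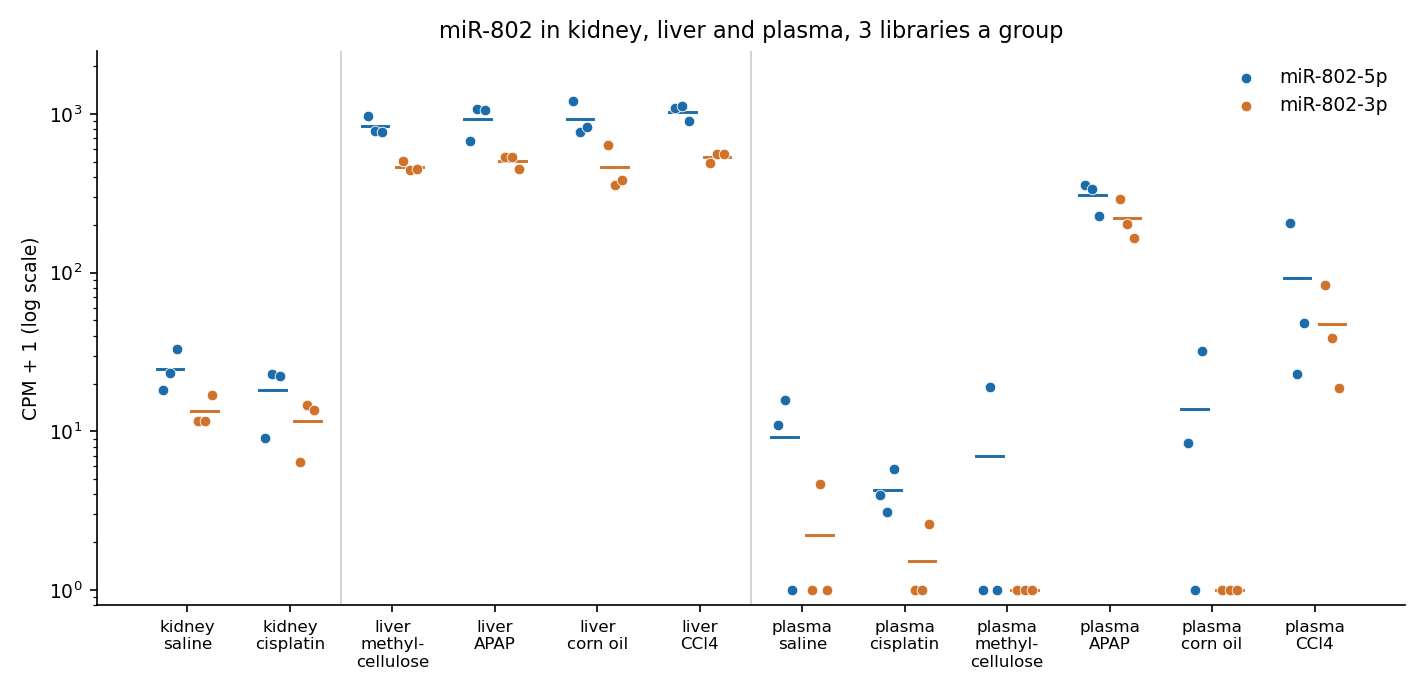
Level of miR-802-5p (blue) and miR-802-3p (orange) as CPM + 1 on a log axis in the 36 kidney, liver and plasma libraries. Each point is 1 library and each bar the mean of a group of 3; the liver points lie between 355 and 1202 CPM, and in plasma the APAP points (165 to 355 CPM) lie above all others but the highest CCl4 point of miR-802-5p, 205 CPM.

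In the liver, miR-802-5p stood among the more abundant miRNAs. The methylcellulose libraries held 973, 778 and 768 CPM of it, from 595, 477 and 500 reads, and the corn oil libraries 1202, 766 and 831 CPM, from 493, 350 and 571 reads. It ranked between 51 and 64 by level in the 12 liver libraries, which listed reads for 360 to 498 miRNAs, and miR-802-3p ranked between 67 and 86. The vehicle groups overlapped for both arms, and corn oil differed from methylcellulose by a log2 fold change of 0.19 for miR-802-5p (SE 0.15, adjusted p = 0.893) and 0.02 for miR-802-3p (SE 0.17, adjusted p = 0.974, edgeR quasi-likelihood test with Benjamini-Hochberg adjustment over the 246 miRNAs tested). edgeR called 0 of the 246 (0%), with 12 at an unadjusted p under 0.05 and 0 by DESeq2.

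Neither liver toxicant moved miR-802 in the liver beyond the spread between rats. After APAP miR-802-5p stood at 677, 1070 and 1050 CPM and miR-802-3p at 534, 537 and 448 CPM, against 501, 439 and 450.0 CPM of miR-802-3p in the methylcellulose livers. The lowest and the highest of these 6 miR-802-5p values both belonged to APAP rats, so the groups overlapped. The log2 fold change was 0.15 for miR-802-5p (SE 0.17, 95% interval -0.19 to 0.50, adjusted p = 0.828) and 0.12 for miR-802-3p (SE 0.17, 95% interval -0.23 to 0.46, adjusted p = 0.859), with 0 of the 2 arms called where edgeR called 3.21% of the 249 miRNAs tested. After CCl4 miR-802-5p stood at 1081, 1114 and 899 CPM and miR-802-3p at 488, 560 and 555 CPM, against 639, 355 and 383 CPM of miR-802-3p in the corn oil livers. Both arms lay inside the range of the corn oil livers. Bulk tissue cannot tell fewer cells of a type from less RNA per cell. The log2 fold change was -0.0024 for miR-802-5p (SE 0.15, 95% interval -0.31 to 0.31, adjusted p = 0.992) and 0.09 for miR-802-3p (SE 0.17, 95% interval -0.28 to 0.45, adjusted p = 0.796), with 0 of the 2 arms called where edgeR called 2.76% of 254. CCl4 replicates 2 and 3 were sequenced on lane 6 and all other liver libraries on lane 5. The lane 5 CCl4 library, with 1081 CPM of miR-802-5p, also lay inside the corn oil range. Of 5 white blood cell miRNAs 2 were called higher after each toxicant (miR-155-5p by 2.39 after APAP and 2.06 after CCl4 on the log2 scale). After APAP miR-150-5p went the other way (-0.33, SE 0.19, adjusted p = 0.641, edgeR). The median log2 fold change of these 5 was 0.076 after APAP and 0.51 after CCl4, against 0.005 and -0.066 over all miRNAs tested. Their list summed to 2634 to 3404 CPM against 2650 to 2817 CPM after APAP and to 3822 to 5183 CPM against 2477 to 3448 CPM after CCl4, with no member at 0, and its part in the level of miR-802 was not tested. The response of miR-802 to APAP minus that to CCl4 was 0.14 for miR-802-5p (SE 0.24, adjusted p = 0.898) and 0.02 for miR-802-3p (SE 0.23, adjusted p = 0.968), where edgeR called 0 of 262 miRNAs (0%), with 14 at an unadjusted p under 0.05 and 1 by DESeq2.

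The kidney held miR-802 at a low level that each of the 6 libraries showed on both arms. The saline kidneys held 17.2, 22.3 and 31.9 CPM of miR-802-5p, from 57, 80 and 20 reads, and 10.6, 10.6 and 16.0 CPM of miR-802-3p, from 35, 38 and 10 reads. It stood between ranks 204 and 249 for miR-802-5p in these 3 libraries, and the mean level was 37.2-fold lower than in the livers of vehicle rats for miR-802-5p and 37.3-fold lower for miR-802-3p. Liver against kidney gave log2 fold changes of 5.48 for miR-802-5p (SE 0.21, adjusted p = 1.61e-16) and 5.47 for miR-802-3p (SE 0.22, adjusted p = 3.61e-16, edgeR), in 6 liver and 3 kidney libraries. By size they ranked 3 and 4 of 275 miRNAs tested, of which edgeR called 42.9% higher in liver. Liver and kidney rats also differed in vehicle, route and day, and their libraries in sequencing lane. None of these can be told apart from the tissue.

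No change of miR-802 in the kidney passed the test after cisplatin. The cisplatin kidneys held 8.04, 21.9 and 21.3 CPM of miR-802-5p and 5.36, 13.7 and 12.6 CPM of miR-802-3p. The low values are those of replicate 1, which lay below the lowest saline library on both arms. They rest on 3 and 2 reads of a library of 372997 and have 95% counting intervals of 1.66 to 23.5 CPM and 0.649 to 19.4 CPM. The log2 fold change was -0.24 for miR-802-5p (SE 0.35, 95% interval -1.01 to 0.53, adjusted p = 0.862) and 0.07 for miR-802-3p (SE 0.33, 95% interval -0.66 to 0.81, adjusted p = 0.974). Same-numbered kidney libraries deviated together, though the labels do not pair these rats. In each such pair miR-802-5p was lower in the cisplatin library, but for replicate 2 only by 21.9 against 22.3 CPM, from 72 and 80 reads. With the replicate number as a block the log2 fold change of miR-802-5p was -0.36 (SE 0.29, adjusted p = 0.757, edgeR). Of the 2 arms 0 were called, where edgeR without the block called 1.74% of the 344 miRNAs tested. The red blood cell list had 2 of 5 members called lower in the same kidneys (miR-144-3p by -1.51 on the log2 scale, SE 0.33, adjusted p = 0.0489), with sums of 6735 to 8259 CPM against 6640 to 8024 CPM in saline and no member at 0, and its part in the level of miR-802 was not tested.

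Urine gave no usable level. Of the 18 urine libraries 17 held 0 reads of miR-802-5p, and all 18 held 0 reads of miR-802-3p. The single read came from cisplatin replicate 2. The 9 vehicle libraries held 10455 reads together, in which a count of 0 allows up to 287 CPM, and the 9 treated libraries held 77368 reads, in which it allows up to 38.8 CPM of miR-802-3p (3 counts of the total, for counting error only). Most of these reads came from cisplatin replicate 1, and the other 8 treated libraries, with 19217 reads, allow up to 156 CPM. A urine level like that of the kidney was therefore not detectable at this depth.

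In the plasma of vehicle rats miR-802 lay near the limit of detection. Over the 9 vehicle libraries there were 18 reads of miR-802-5p, in 5 libraries, and 1 read of miR-802-3p, in 1 saline library. The methylcellulose libraries held 0, 17.9 and 0 CPM of miR-802-5p, from 0, 5 and 0 reads, where the library of replicate 3 had only 21627 reads in all and 0 reads allow up to 139 CPM there. The corn oil libraries held 7.38, 0 and 31.2 CPM, from 3, 0 and 3 reads, and the saline libraries 9.91, 14.7 and 0 CPM, from 3, 4 and 0 reads. These values overlap throughout, and both arms were below the filter on low counts between vehicle groups, so they had no main test. In the pairs of vehicles fitted without the filter (edgeR) or with DESeq2 neither arm was called, with adjusted p of 0.955 or more. Against the liver of the same vehicles the mean level in plasma was 94.2-fold lower for miR-802-5p by total counts. The edgeR fit, with the TMM scaling described below, gave a log2 fold change of -7.77 (SE 0.48, adjusted p = 2.23e-09). For miR-802-3p, with 0 reads in these 6 plasma libraries, the mean level in liver was at least 182-fold higher (taking 3 reads in all 6 plasma libraries as the floor). Ordered from the highest to the lowest plasma level relative to liver, miR-802-5p ranked 276 of 282 miRNAs, of which edgeR called 51.1% lower in plasma. RNA of plasma and of tissue was isolated by different procedures, and the libraries ran on different lanes. Neither can be told apart from the sample type. In saline rats the plasma held less miR-802-5p than the kidney (log2 fold change -2.54, SE 0.62, adjusted p = 0.00181), where edgeR called 45.7% of 278 miRNAs lower in plasma.

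After APAP both arms of miR-802 were elevated in plasma in every rat. miR-802-5p stood at 355, 337 and 226 CPM, from 174, 257 and 100 reads, against 0, 17.9 and 0 CPM in the methylcellulose rats. miR-802-3p stood at 292, 201 and 165 CPM, from 143, 153 and 73 reads, against 0 reads in all 3 methylcellulose libraries. The groups did not overlap for either arm, which 18.1% of the 227 miRNAs tested also showed in the direction of APAP. The mean level of miR-802-5p was 51.3-fold higher than in the vehicle, and that of miR-802-3p at least 44.8-fold higher (with 3 reads in the 3 vehicle libraries as the floor). edgeR called both arms, with a log2 fold change of 6.62 for miR-802-5p (SE 1.03, adjusted p = 0.00100) and an adjusted p of 0.00100 for miR-802-3p, whose fitted log2 fold change of 10.24 has no vehicle read behind it and is no bound. Both arms passed the filter on low counts only through the APAP libraries, so that they were tested at all depended on the rise. Of the 227 miRNAs 21.6% were called higher, 49 in number. By fitted fold change miR-802-5p ranked 7 of all 227, an order that includes fits without vehicle reads such as that of miR-802-3p. An exact permutation test of log2(CPM + 1) gave p = 0.10 for each arm, the smallest that 3 against 3 libraries can give.

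Scaling moved the size of this rise and not its call. With TMM scaling, which sets the libraries level by the bulk of their miRNAs, the median log2 fold change of all miRNAs tested was 0.21, and with total counts it was -0.92. Relative to that median miR-802-5p rose by 6.41 with TMM and 6.09 with total counts. The TMM factor of APAP replicate 1 was 0.350, against 0.922 and 0.894 in the other APAP libraries. Leaving it out gave a log2 fold change of 5.82 for miR-802-5p. Leaving out methylcellulose replicate 2, the only vehicle library with reads of miR-802-5p, gave a fitted 10.29 against vehicles at 0 reads, and the call stood (adjusted p = 1.25e-08, edgeR). With TMM-scaled library sizes the mean level was 149-fold higher for miR-802-5p and at least 132-fold higher for miR-802-3p.

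Other miRNAs of the liver rose in the same plasma samples. The study took its liver-enriched list from miRNAs that it found elevated in these same plasma samples after both APAP and CCl4. Of those it named the ones that a published rat miRNA atlas gave as specific to or enriched in liver. Both arms of miR-802 were on that list too, and the 4 members used here leave them out. A rise of any miRNA of the list here is therefore no independent result. Of these 4 members 3 were called higher after APAP, where 21.6% of all 227 miRNAs were. The log2 fold change was 7.85 for miR-122-5p (SE 1.01), 6.80 for miR-122-3p (SE 0.86) and 4.49 for miR-365-3p (SE 0.89). That of miR-31a-5p was 1.51 (SE 0.75, adjusted p = 0.157, edgeR). The list of other liver miRNAs was not specific to liver. It summed to 191124 to 212202 CPM in saline kidney and to 472677 to 498272 CPM in methylcellulose liver. In vehicle rats 8 of its 10 tested members were called higher in liver than in kidney and 1 lower (edgeR). In APAP plasma 8 of the 9 tested were called higher, with a median log2 fold change of 3.85 against 0.21 over all miRNAs. The largest fitted value, 7.40 for miR-192-3p, has 0 vehicle reads behind it and is no bound, and with that member at its floor of 3 reads (4.26) the median was again 3.85. Among the members with vehicle reads the largest was miR-192-5p with 6.73 (SE 0.75) and the smallest miR-148a-3p with 1.25 (SE 0.47, adjusted p = 0.0674). Against the same 21.6%, the kidney epithelium list had 4 of 8 called higher (median 1.01), and the islet miRNA miR-375-3p rose by 3.58 (SE 0.74, adjusted p = 0.00449). Blood cell lists did not pass the test, with 0 of 5 red blood cell miRNAs called (median 0.41) and 0 of 5 white blood cell miRNAs (median -0.81), nor did the muscle list, with 0 of 2 called. Their summed level by total counts was lower, at 17493 to 45473 CPM in APAP against 73986 to 98950 CPM in methylcellulose for the red blood cell list, with no member at 0, and at 3359 to 19355 CPM against 38592 to 44297 CPM for the white blood cell list, also with no member at 0. The part of this shift in the level of miR-802 was not tested beyond the scaling alternatives given above.

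**Figure D2:**
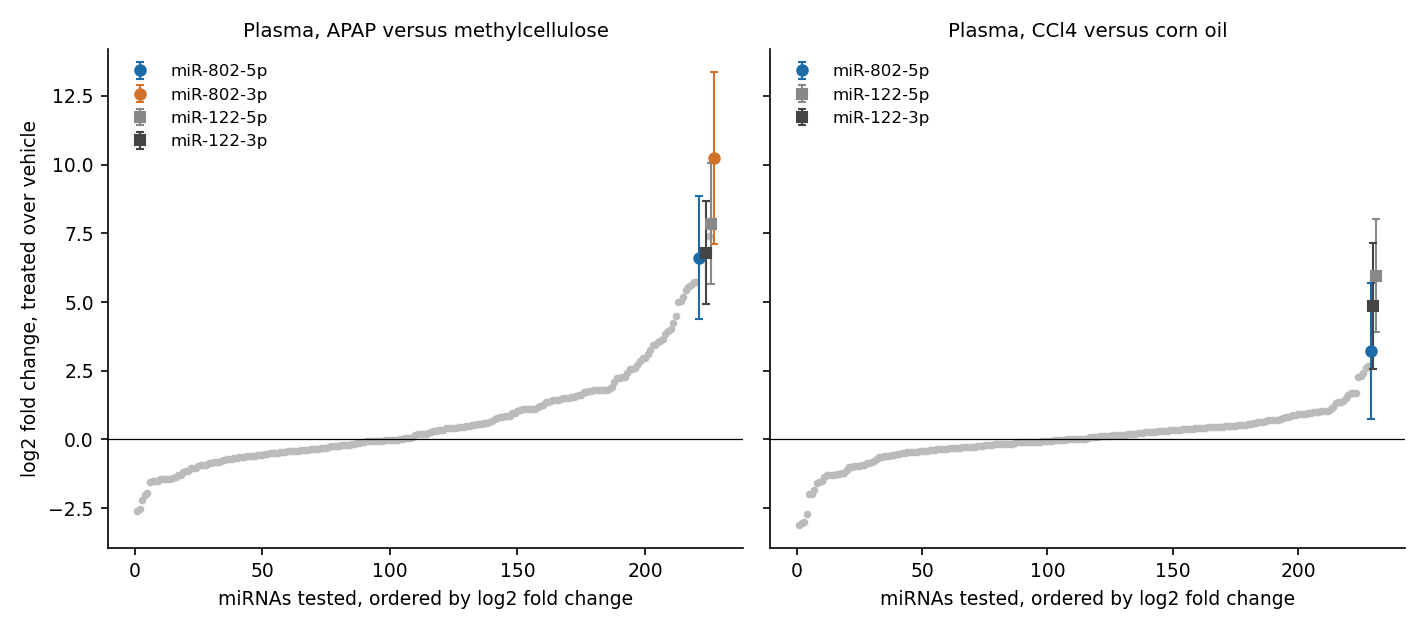
Log2 fold change of every miRNA tested in plasma (grey points, in order of size) for APAP (227 miRNAs) and CCl4 (231 miRNAs), with miR-802 as circles, miR-122 as squares and bars for the 95% interval of the fit. miR-802-5p lies at 6.62 and 3.22, near the upper end of both; miR-802-3p, fitted at 10.24 against 0 vehicle reads, was tested after APAP only.

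After CCl4 miR-802 was higher in plasma by mean level, but with a wide spread between rats. miR-802-5p stood at 205, 22.1 and 47.3 CPM, from 252, 10 and 61 reads, against 7.38, 0 and 31.2 CPM in the corn oil rats. CCl4 replicate 2 lay below the highest corn oil library, so the groups overlapped. Its mean level was 7.12-fold higher than in corn oil, and the log2 fold change of 3.22 (SE 1.11, 95% interval 0.74 to 5.69) did not pass the test (adjusted p = 0.308), although it ranked 3 of 231 miRNAs by size. Of the 231, edgeR called 0.433% higher, which is miR-122-5p alone (5.96, SE 0.92, adjusted p = 0.0141). An unadjusted p under 0.05 was found for 20, miR-802-5p among them (unadjusted p = 0.0158, edgeR). Without the filter on low counts miR-802-5p was called (3.43, adjusted p = 0.00493), and without CCl4 replicate 1 its log2 fold change was 1.65. Over all alternatives its adjusted p ran from 0.00493 to 0.924.

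miR-802-3p stood at 82.9, 37.6 and 17.8 CPM after CCl4, from 102, 17 and 23 reads, against 0 reads in all 3 corn oil libraries. These groups did not overlap, which 6.49% of the 231 miRNAs tested, miR-802-3p not among them, showed in that direction. The corn oil libraries were small, and 0 reads there allow up to 7.38, 42.4 and 31.2 CPM. Only CCl4 replicate 1 lay above all 3 of these limits. Its mean level was at least 8.82-fold higher by the same floor. It fell below the filter on low counts and so had no main test. The call depended on the setting: the adjusted p was 0.000141 with edgeR without the filter, 0.0244 with DESeq2, 0.0432 with edgeR on all 18 plasma libraries and 0.0872 with edgeR on miRNAs of a mean count of at least 10. Without corn oil replicate 1, 2 or 3 the adjusted p was 0.0608, 0.292 and 0.164 (edgeR). Without CCl4 replicate 3 it was 0.0486 (edgeR). The exact permutation test gave p = 0.10 for miR-802-3p and p = 0.20 for miR-802-5p (3 against 3, two-sided). Of the liver-enriched list without miR-802, drawn from miRNAs elevated in these same plasma samples, 1 of 3 tested members was called after CCl4. Of the other liver miRNAs 0 of 8 were called, with a median of 1.26 against 0.04 over all miRNAs. Among these miR-193a-3p had the largest value, 2.68 (SE 0.59, adjusted p = 0.0721, edgeR). The red and white blood cell lists had 0 of 5 called each, the kidney epithelium list 0 of 8, the muscle list 0 of 2 and the islet list 0 of 1. All plasma libraries of corn oil and CCl4 shared lane 1, and those of methylcellulose and APAP shared lane 8.

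The rise after APAP was larger than that after CCl4 by a log2 difference of 3.47 for miR-802-5p (SE 1.73, 95% interval -0.19 to 7.14), which did not pass the test of the difference (adjusted p = 0.377). In that test edgeR called 0 of 255 miRNAs (0%), with 35 at an unadjusted p under 0.05 and 8 by DESeq2. For miR-802-3p no difference could be fitted, since both vehicle groups held 0 reads. Cisplatin rats showed no such rise. Their plasma held 2.96, 2.10 and 4.79 CPM of miR-802-5p, from 1, 1 and 3 reads, and 1 read of miR-802-3p in all, against 7 reads and 1 read in the saline rats. Both arms were below the filter there, and the exact permutation test gave p = 0.90 for miR-802-5p.

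Set against the liver of the same treatment, plasma came closest to the tissue after APAP. The mean plasma level of miR-802-5p was 32.8% of the liver level after APAP and 8.86% after CCl4, against 0.710% with methylcellulose and 1.38% with corn oil. The CCl4 value rested largely on plasma replicate 1, without which it was 3.36%, and the vehicle values rested largely on 1 library each, being 0% without methylcellulose replicate 2 and 0.395% without corn oil replicate 3. For miR-802-3p it was 43.3% after APAP and 8.63% after CCl4 (5.18% without plasma replicate 1), while the plasma of either vehicle held 0 reads of it, which gives no level. miR-122-5p reached 8.50% after APAP and 4.23% after CCl4, against 0.0682% with methylcellulose (2.41% after CCl4 without plasma replicate 1, and 0% with methylcellulose without replicate 2), and its other arm, miR-122-3p, reached 60.5% and 23.0% (12.2% without CCl4 plasma replicate 1), against 1.22% (0.655% without methylcellulose replicate 2). CPM is a share of each library, so these percentages compare shares of miRNA reads and not amounts.

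The 5p arm held the larger share of the miR-802 reads in liver, kidney and plasma alike, and no test found a change of the ratio beyond the spread between libraries. Over all libraries 65.1% of its reads came from the 5p arm (exact Clopper-Pearson 95% interval 64.4% to 65.8%, which like all intervals on reads covers counting error only). The 5p share was 65.3% over the 12 liver libraries (64.5% to 66.1%), 64.0% over the 6 kidney libraries (59.1% to 68.6%) and 63.1% over the 18 plasma libraries (60.5% to 65.6%). Such a balance was uncommon among miRNAs with both arms listed. In liver 145 of these had 100 reads or more, the more abundant arm held a median of 97.9% of their reads, and 9 of them (6.21%) had a share as low as that of miR-802 or lower.

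Within the liver the share of the 5p arm was 66.0%, 63.9% and 63.1% in the methylcellulose rats, 55.9%, 66.6% and 70.1% in the APAP rats, 65.3%, 68.4% and 68.5% in the corn oil rats and 68.9%, 66.6% and 61.8% in the CCl4 rats. The APAP livers held both the lowest and the highest of these 12 values. In an edgeR fit of the 2 arms of each library the log2 ratio of 5p to 3p changed by 0.03 after APAP (SE 0.22, adjusted p = 0.992) and by -0.11 after CCl4 (SE 0.19, adjusted p = 0.870). Of the precursors tested edgeR called 2.67% of 75 and 0% of 94, the latter with 8 at an unadjusted p under 0.05 and 0 by limma.

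In the kidney the 5p share was 62.0%, 67.8% and 66.7% in saline and 60.0%, 61.5% and 62.8% in cisplatin rats, lower in the cisplatin library of each same-numbered pair, where the first cisplatin value rests on 5 reads. Of the 3 cisplatin libraries 2 lay below the lowest saline library. The log2 ratio changed by -0.22 with cisplatin (SE 0.43, adjusted p = 0.975), where edgeR called 0% of 109 precursors, with 3 at an unadjusted p under 0.05 and 0 by limma. Between the liver and the kidney of vehicle rats it differed by 0.03 (SE 0.30, 95% interval -0.57 to 0.63, adjusted p = 0.950), where edgeR called 21.1% of 109.

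In plasma after APAP the 5p share was 54.9%, 62.7% and 57.8%, and after CCl4 it was 71.2%, 37.0% and 72.6%. The low CCl4 value is that of replicate 2, with 27 reads and an interval of 19.4% to 57.6%, the only library of 20 reads or more with more 3p than 5p reads. Against the liver of APAP rats the log2 ratio in plasma changed by -0.37 (SE 0.36, 95% interval -1.14 to 0.41, adjusted p = 0.416), and against the liver of CCl4 rats it changed by -0.01 (SE 0.47, adjusted p = 0.990). Without CCl4 replicate 2 the latter was 0.40. Many other precursors did shift between plasma and liver: edgeR called 50.0% of 72 in APAP rats and 45.2% of 104 in CCl4 rats, and miR-122 moved toward its 3p arm by -2.80 (SE 0.33, adjusted p = 3.06e-05) and -2.54 (SE 0.42, adjusted p = 3.96e-08). Its 5p share was 93.6% to 95.8% in the 12 liver libraries and 59.6% to 85.4% in the 6 plasma libraries of APAP and CCl4 rats. The difference between miR-802 and miR-122 in this shift was not tested.

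The few reads in the plasma of other rats leaned to the 5p arm. Over the 9 vehicle libraries 18 of 19 reads were 5p, a share of 94.7% (74.0% to 99.9%), and with the 3 cisplatin libraries added 23 of 25 were, a share of 92.0% (74.0% to 99.0%). These intervals lie above the 5p share of each of the 3 APAP plasma libraries and of each liver library. Reads pooled over rats are not replicates, no change of the ratio could be fitted against vehicle groups with 0 reads of miR-802-3p, and the difference was not tested.

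**Figure D3:**
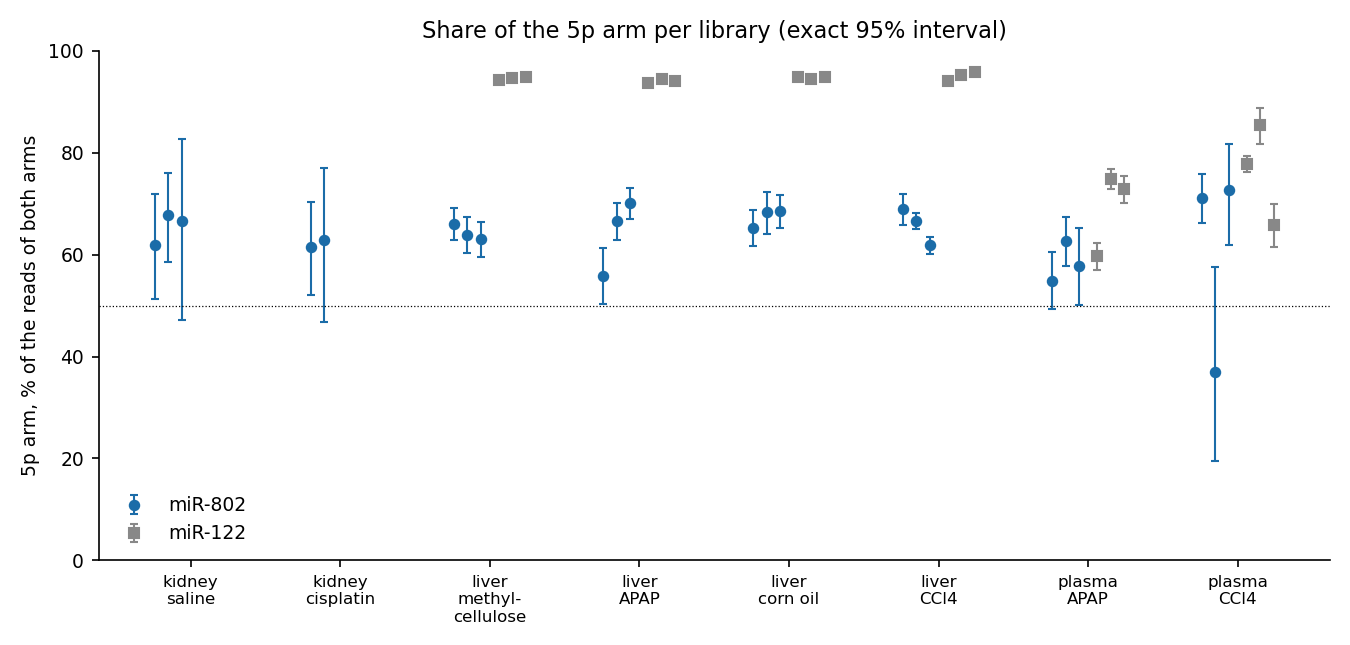
Share of the 5p arm in the reads of both arms, in percent, for miR-802 (blue circles) and miR-122 (grey squares) in each library with 20 reads or more, with the exact 95% interval. miR-802 lies between 54.9% and 72.6% in liver, kidney and plasma apart from 1 CCl4 plasma library at 37.0%, while miR-122 falls from 93.6% or more in liver to between 59.6% and 85.4% in plasma.

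The level of miR-802 relative to miR-122 separated the kidney from the liver. In the kidney there was more miR-802 than miR-122, with 17.2, 22.3 and 31.9 CPM of miR-802-5p beside 1.81, 3.90 and 1.60 CPM of miR-122-5p in the saline rats. These miR-122-5p values rest on 6, 14 and 1 reads. In the liver of vehicle rats there was far less miR-802 than miR-122, with 766 to 1202 CPM beside 17623 to 22562 CPM. The log2 ratio of the 5p arms (pseudocount 0.5 CPM) averaged 3.09 ± 0.80 in 3 kidneys and -4.55 ± 0.23 in 6 livers, a difference of 7.64 (exact permutation p = 0.0119, the smallest this design can give). Both miRNAs were therefore lower in kidney than in liver, miR-122-5p by a log2 fold change of 12.94 (SE 0.21, edgeR) and miR-802-5p by 5.48. Cisplatin changed the ratio by 0.34 (exact permutation p = 0.70), where cisplatin replicate 1 held 0 reads of miR-122-5p and its ratio rests on the pseudocount.

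In plasma after the liver toxicants the ratio depended on which arm was used. With the 5p arms miR-802 stood at 22.9%, 16.8% and 12.3% of miR-122 in the plasma of APAP rats and at 3.30%, 4.75% and 5.11% in their liver, so that the log2 ratio was higher in plasma by 1.96. With the 3p arms it stood at 27.8%, 29.7% and 24.2% in plasma and at 38.1%, 41.2% and 35.1% in liver, so that the log2 ratio differed by -0.49, in the opposite direction. Neither set of plasma values overlapped its liver values, and each comparison gave an exact permutation p of 0.10, the smallest possible. In CCl4 rats the difference was 0.84 with the 5p arms (exact permutation p = 0.40) and -1.38 with the 3p arms (exact permutation p = 0.10), and without plasma replicate 2 the former was 1.63. With both arms summed the difference was 1.64 in APAP rats (exact permutation p = 0.10) and 0.70 in CCl4 rats (exact permutation p = 0.30). These ratios compare libraries, since reads of different miRNAs need not stand for equal numbers of molecules.

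**Figure D4:**
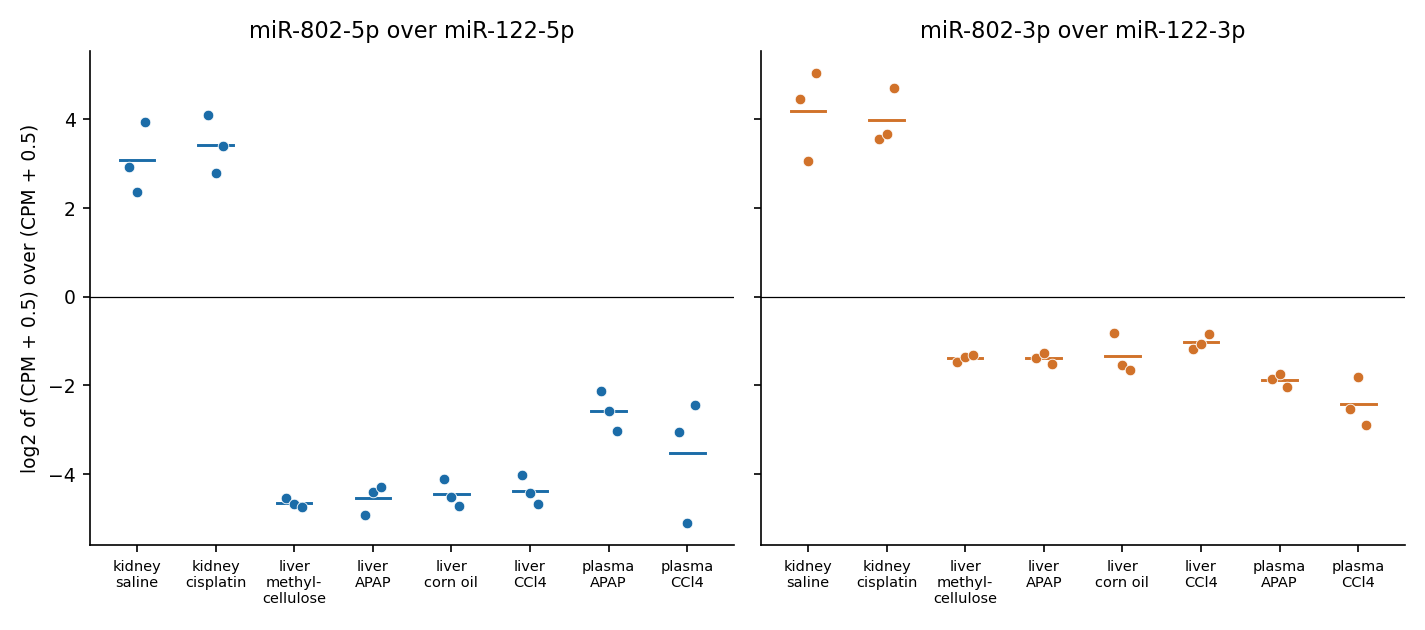
Log2 ratio of miR-802 to miR-122 in each library (points) with the group mean (bars, 3 libraries), for the 5p arms on the left and the 3p arms on the right, after adding 0.5 CPM to each level. The kidney lies above 0 with both arms. With the 3p arms all but 1 kidney of each group held 0 reads of miR-122-3p, and the pseudocount sets the ratio there. APAP plasma lies above APAP liver with the 5p arms (-2.57 against -4.53) and below it with the 3p arms (-1.88 against -1.39).

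The miRNAs most like miR-802 over the 36 kidney, liver and plasma libraries were mostly ones high in liver and raised in plasma after APAP. By Pearson's r of log2(CPM + 1), given as a description over libraries that share their scaling and group structure, miR-802-5p was closest to miR-802-3p (0.951), miR-193a-3p (0.933), miR-365-3p (0.903), miR-122-5p (0.902) and miR-378b (0.901), where the median over 339 miRNAs was -0.02. miR-802-3p was closest to miR-802-5p (0.951), miR-378b (0.932), miR-193a-3p (0.932), miR-22-3p (0.931) and miR-194-3p (0.924). With Spearman's rho 4 of the 5 stayed on each list, and with all 54 libraries 3 stayed for miR-802-5p and 1 for miR-802-3p.

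Their own levels are given for comparison. miR-193a-3p, which is high in liver, averaged 618 ± 195 CPM in methylcellulose liver, 71.1 ± 2.04 CPM in saline kidney, 19.3 ± 17.0 CPM in methylcellulose plasma and 524 ± 57.7 CPM in APAP plasma. Its plasma rise after APAP was 5.73 on the log2 scale (SE 0.75, adjusted p = 0.000454, edgeR). miR-378b averaged 1642 ± 250 CPM in methylcellulose liver, 272 ± 5.98 CPM in saline kidney, 145 ± 49.6 CPM in methylcellulose plasma and 921 ± 262 CPM in APAP plasma, a rise of 4.25 (SE 0.71, adjusted p = 0.00128, edgeR). The plasma of methylcellulose rats held 17 reads of miR-193a-3p and 77 reads of miR-378b, against 5 reads of miR-802-5p.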

How the data were processed

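The deposited table holds raw read counts of 832 mature miRNAs in 54 libraries, not normalized. The authors clipped adaptors from 36-base reads, aligned them with OSA v4 to Rnor_5.0 and miRBase v21, allowed 2 mismatches, dropped any read mapping to over 10 locations, and counted reads on the mature miRNA region, so a change in the cut ends of an arm does not show. All 54 columns were matched to samples by label. The table was fitted whole with edgeR 4.0.16 (TMM, filterByExpr with minimum count 10 and total 15, glmQLFit and the 2-sided glmQLFTest, adjusted p under 0.05), each treated group against its vehicle. Arm ratios used 2 columns per library with library as a term, for precursors with a mean of 20 reads over both arms and 10 reads on each. Other tools were DESeq2 1.42.0, limma 3.58.1, SciPy 1.17.1 and RNAfold 2.7.2. Intervals on reads are exact 95% intervals. Of the RefSeq hairpins 1 matched miR-802 by name.

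The members and the marker lists were chosen with earlier results of these data known. Named miRNAs are both arms, the 5 with the highest correlation to each among miRNAs with 10 reads in 3 libraries, the liver-enriched list, and the largest and smallest change of each other list. The arm ratio of liver against kidney, the ratio to miR-122 outside plasma and with other arms, and the TMM-scaled folds were added after the data were seen. Lanes are as the column names give them. Replicate numbers were shared between groups. Same-numbered kidney libraries of cisplatin and saline deviated together (r = 0.262, 0.327 and 0.378 over 344 miRNAs), and no other main comparison showed this for all 3 numbers. Alternatives were other scalings, filters, pseudocounts and tools, the replicate block, and leaving out each library.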

Additional observations from a re-analysis of the deposited data

How the results depend on the processing

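Of 43 results, 21 kept their direction and their side of the threshold under every alternative tried, as did 412 of 474 alternative values. Another 2, the log2 ratios to miR-122 in CCl4 plasma (-1.71) and cisplatin kidney (0.34), changed sign while moving by less than the spread between libraries, to 0.73 and -0.21 with the 3p arms and, in kidney, to -0.082 with a pseudocount of 2 CPM and -0.019 without saline replicate 2. With the 3p arms the pseudocount stood in for 0 reads of miR-802-3p in corn oil plasma. It also stood in for 0 reads of miR-122-3p in all but 1 kidney of each group. Both arms stayed called in plasma after APAP, in liver against kidney and in plasma against liver under each alternative that was fitted.

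The one call that changed for a level tested was miR-802-5p in plasma after CCl4, which passed without the filter on low counts (log2 fold change 3.43, adjusted p = 0.00493, edgeR); the cause was not tested. The other changes of direction were around values near 0, none of them called, and their cause was not tested. miR-802-3p in kidney gave -0.049 with DESeq2 and -0.019 with the replicate block, and -0.17 to 0.22 when 1 library was left out. miR-802-5p in liver after CCl4 gave 0.048 with DESeq2, 0.066 with RLE factors, 0.15 with total counts, 0.092 without the filter, 0.071 with a mean count of at least 10 and 0.010 with the replicate block, and -0.044 to 0.15 with 1 library left out. The difference of the liver responses of miR-802-3p gave -0.033 with DESeq2, -0.033 with RLE factors, -0.11 with total counts, -0.094 without the filter and -0.0031 with the replicate block, and -0.32 to 0.13 with 1 library left out, where that of miR-802-5p gave -0.11 to 0.29. Corn oil against methylcellulose in liver gave for miR-802-3p -0.018 with DESeq2, -0.0070 with RLE factors, -0.024 with total counts, -0.0093 without the filter and -0.016 with the replicate block, and -0.29 to 0.16 with 1 library left out, where miR-802-5p gave -0.028 to 0.30. The replicate block changed no call of miR-802.

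The arm ratio of plasma against liver in CCl4 rats was 0.0012 with a mean of 100 reads over both arms and -0.36 to 0.40 with 1 library left out. The arm ratios left out in the same way ran from -0.15 to 0.26 for liver APAP, -0.20 to 0.018 for liver CCl4 and -0.10 to 0.17 for liver against kidney. With the 3p arms the log2 ratio to miR-122 was 1.76 higher in APAP than in methylcellulose plasma (7.74e-05 with both arms, against -2.16 with the 5p arms). The pseudocount largely sets these 3 values. Methylcellulose plasma held 0 reads of miR-802-3p, and only 1 of its libraries held reads of either 5p arm. The 3p ratio differed by -0.49 and -1.38 between plasma and liver of APAP and CCl4 rats. It was 5.55 higher in kidney than in liver, where the saline kidneys held 3 reads of miR-122-3p, all in 1 library, so that the pseudocount weighs there too. On the log2 scale miR-802-3p in plasma relative to liver was -10.86 and -6.87 with pseudocounts of 0.25 and 4 CPM and -9.18 with TMM in methylcellulose rats, and -10.84 and -6.85 with the same pseudocounts in corn oil rats, where the pseudocount sets the value since plasma held 0 reads. For miR-802-5p in methylcellulose rats it was -9.72 to -6.40 with 1 library left out. TMM-scaled library sizes gave a 149-fold rise of miR-802-5p and at least a 132-fold rise of miR-802-3p in APAP plasma. Low counts set the limits here: 19 reads of miR-802 in 9 vehicle plasma libraries, 1 in 18 urine libraries and 5 in 1 cisplatin kidney.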
